A study of Drosophila melanogaster with 72 samples.

Results

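The cytosolic ribosomal protein genes of Drosophila melanogaster were followed in skeletal muscle across age, strain, time of day and a muscle transgene. They were taken from the count files by symbol, as every gene whose name starts with RpL or RpS followed by a digit or by P, with names ending in -like left out. This gave 87 members of 15682 listed genes, 50 of the large subunit, stalk genes included, and 37 of the small subunit. The pattern matched 92 symbols before 5 -like names were left out, and all 87 members matched a gene model of the annotation.

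A ribosome is built from ribosomal RNA and one copy of most ribosomal proteins, with several copies of the stalk proteins P1 and P2, which sit on P0 and help to recruit elongation factors. The large subunit holds the site of peptide bond formation and the small subunit decodes the messenger RNA. In animals the messenger RNAs of ribosomal proteins are translated under control of the kinase TOR, and in Drosophila lower dosage of single ribosomal protein genes gives the Minute phenotype of slow growth and short bristles.

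The study measured muscle RNA in the parental strain B3 and in the strains O1 and O3, in which aging is delayed relative to B3. In the age experiment each strain was sampled at 1 week and at 6 weeks with 3 libraries per group. In a separate day course the 3 strains were sampled at 0, 6, 12 and 18 h of zeitgeber time (ZT, hours since the light phase began), with 31 libraries. A further day course compared flies with timeless (tim) expressed in muscle through Mhc-Gal4, called mhc>timeless, with flies that carry the Mhc-Gal4 driver alone, called mhc, with 23 libraries. Mhc-Gal4 drives expression in muscle, and both genotypes carry it. A day-course group had 3 libraries as a rule, but O1 had a single one at ZT18, and B3 had 2 at ZT6 and 2 at ZT18, O3 had 2 at ZT6 and mhc>timeless had 2 at ZT0. The labels used here do not give the sex of the flies, the age in the day courses, the hour of harvest in the age experiment, or whether libraries of a group came from separate flies. P-values therefore measure the spread between these libraries, which may be technical.

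The libraries of the age experiment summed to 15.5 to 35.7 M counts, those of the strain day course to 39.5 to 90.0 M and the transgenic ones to 53.1 to 170 M. At 1 week the libraries held 15.5 to 31.6 M and the 6-week libraries 25.6 to 35.7 M. Reads in no annotated feature took 20.8 to 27.9% at 1 week and 13.0 to 17.6% at 6 weeks. The share of alignments set aside as not unique, relative to all gene-level reads, lay between 0.296 and 0.553% for the age libraries, between 18.0 and 36.9% for the strain day course and between 6.81 and 10.3% for the transgenic libraries, so levels were compared within an experiment only. The summed level of 17 muscle markers was high in all 18 age libraries and was lower at 6 weeks. The sum was 42063 to 45968 CPM (counts scaled to a common library size) in B3 at 1 week against 29154 to 32532 CPM at 6 weeks, 38295 to 43508 against 20691 to 21960 CPM in O1, and 44119 to 50971 against 17839 to 19638 CPM in O3. As a check of the transgene, tim stood at 144 to 817 CPM in mhc and 891 to 1611 CPM in mhc>timeless, and within each time point every mhc>timeless library was above every mhc library.

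Ribosomal protein genes took a larger part of the muscle RNA in old flies. Their share of gene counts was 4.26 to 4.39% in the B3 libraries at 1 week and 6.40 to 6.59% at 6 weeks. In O1 the share was 4.44 to 4.94% at 1 week and 6.17 to 6.62% at 6 weeks, and in O3 4.39 to 4.75% and 6.55 to 6.71%. In each strain all libraries at 6 weeks were above all libraries at 1 week. In the day courses the share was 4.83 to 6.55% in the strains, 7.06 to 7.86% in mhc and 6.58 to 7.42% in mhc>timeless. In bulk RNA, a change in the number of cells of a type and a change in RNA per cell cannot be told apart. The age difference moved with the lower muscle marker sum, the smaller share of reads in no feature and the larger depth given above. It also moved with markers of gut and fat body, which a muscle preparation could hold. Gut markers, a list of 20 digestive enzyme genes, summed to 6478 to 10487 CPM in B3 at 1 week and to 2370 to 3260 CPM at 6 weeks, to 10466 to 16506 and 8372 to 9065 CPM in O1, and to 5341 to 9054 and 3877 to 8581 CPM in O3. With age 18 of the 20 were lower in B3 with a median log2 change of -3.56, 2 were lower and 1 higher in O1, and 4 lower and 1 higher in O3. The sum of 8 fat body markers went from 2491 to 4171 CPM down to 352 to 430 CPM in B3, from 404 to 704 CPM up to 1021 to 1366 CPM in O3, and was 515 to 2446 and 716 to 1154 CPM in O1. Single fat body markers went both ways. Of 7 tested, 3 were higher and 3 lower with age in B3, 3 higher and 1 lower in O1, and 4 higher and 1 lower in O3. No muscle, gut or fat body marker was at 0 in every library of an age group. The part of depth, unassigned reads and tissue composition in the age results was not tested.

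**Figure D1:**
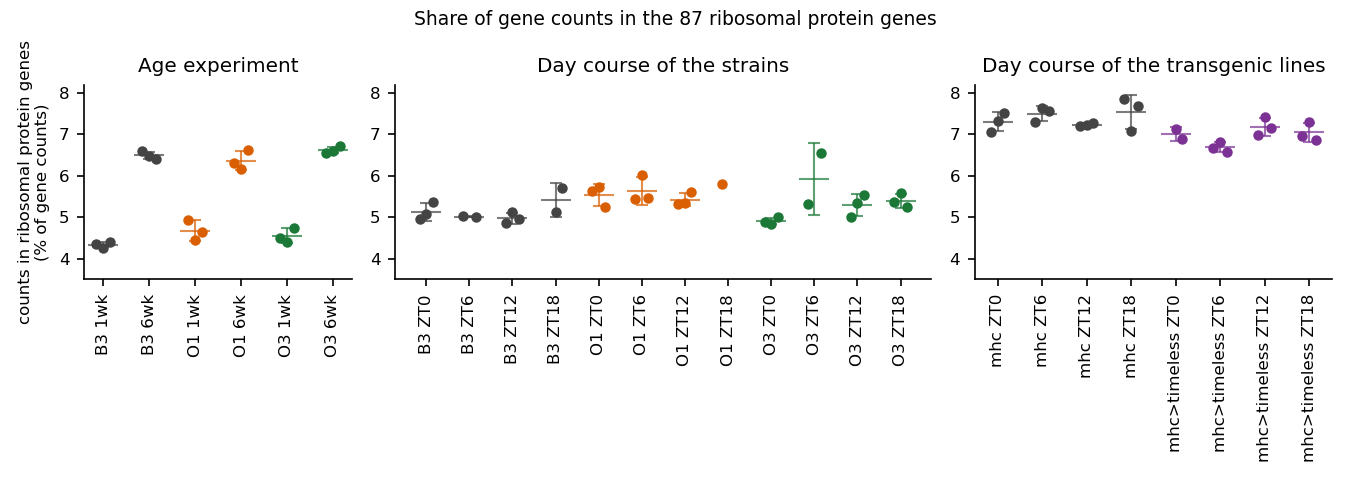
Share of gene counts in the 87 ribosomal protein genes (percent, vertical axis) in each library, by group, for the 3 experiments; points are libraries and bars are the mean ± SD. In the age experiment the libraries at 6 weeks lie at 6.17 to 6.71% and those at 1 week at 4.26 to 4.94%.

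Most members were expressed at a high and rather even level, and a few hardly at all. In the age experiment 79 of 87 members had a mean of at least 100 CPM, and 6 members stood under 5 CPM: RpL10Aa, RpL37b, RpS10a, RpS19b, RpS28a and RpS5b. Each of these 6 carries a letter suffix and has a more abundant partner gene. Per length of exon, RpL41 was first at 2423 CPM per kb and RpL39 second at 2135 CPM per kb. Both encode very short proteins of the large subunit, and they held the first 2 ranks in all 3 experiments. RpS18, a protein of the small subunit head, followed at 1401 CPM per kb. RpL22 stood at 238 CPM per kb, RpL34a at 159 and RpS15Ab at 35.9, the lowest of the members above 5 CPM. The 6 low members ranged from 0.402 CPM per kb for RpS28a to 2.21 for RpL10Aa. Genes with near-identical copies may have lost or shared reads in the authors' counting, so levels of paralogs are uncertain, and without a stated strand setting overlapping genes may share reads as well.

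In B3, nearly the whole set of ribosomal protein genes rose with age, large and small subunit alike. The muscle, gut and fat body marker sums were all lower at 6 weeks in the same libraries, while single fat body markers went both ways. Of 86 members tested, 78 rose and 1 fell at 6 weeks, against 21.8% of all 12445 genes called higher and 20.0% called lower (edgeR's quasi-likelihood test, Benjamini-Hochberg adjusted p under 0.05). RpS28a was below the filter on low counts and was not tested. The median log2 change of the members was 0.44, with the middle part of the members between 0.37 and 0.55, and the median over all genes was -0.03. Of the large subunit genes 46 of 50 rose and of the small subunit genes 32 of 36, each with a median of 0.44. The 3 libraries at 6 weeks were all above the 3 at 1 week for 82 members and all below for 1, where 29.6% of genes separated upward and 29.6% downward. The count was 77 to 79 when any single library was left out, where 35.6 to 36.6% of all genes were called in either direction.

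Among abundant members, the 3 largest changes in B3 were in small subunit genes. RpS10b, the abundant gene for ribosomal protein S10, stood at 446, 455 and 470 CPM at 1 week and at 803, 854 and 784 CPM at 6 weeks. The groups did not overlap, and the log2 change was 0.83 ± 0.071 (SE, adjusted p = 4.12e-07). RpS27, a zinc-binding protein of the small subunit, went from 391, 391 and 400 CPM to 687, 702 and 662 CPM (log2 change 0.79 ± 0.0742, adjusted p = 1.02e-06). Here too every library at 6 weeks was above every library at 1 week. RpS18 rose by 0.71. RpL10, a late-joining protein next to the peptidyl transferase center, rose by 0.69, from 1202, 1133 and 1178 CPM to 1912, 1931 and 1836 CPM. RpS6, the ribosomal substrate of S6 kinase, stood at 589, 600 and 617 CPM and then at 924, 949 and 895 CPM, again without overlap (log2 change 0.62 ± 0.0657, adjusted p = 3.69e-06).

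The stalk genes rose in B3 to different degrees. RpLP0, the stalk base, stood at 749, 782 and 767 CPM at 1 week and at 1222, 1266 and 1187 CPM at 6 weeks (log2 change 0.68 ± 0.083, adjusted p = 1.44e-05). RpLP2 went from 685, 674 and 668 CPM to 975, 988 and 916 CPM, a log2 change of 0.51, and RpLP1 changed by 0.41. The libraries of the 2 ages did not overlap for any of the 3 stalk genes. The ubiquitin fusion genes, whose products are cut into ubiquitin and a ribosomal protein, rose too, RpS27A by 0.38 and RpL40 by 0.24, below the median of the members.

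A few abundant members stood apart from this rise in B3. RpL24, which sits at the subunit interface, was at 439, 444 and 444 CPM at 1 week and 484, 503 and 478 CPM at 6 weeks, and its log2 change of 0.14 ± 0.0575 did not pass (adjusted p = 0.0618). RpL15 was at 0.06 and RpS23, a protein of the decoding center, at 0.17, both not called. The gene that fell was RpS15Ab, the minor of the pair of S15A genes. In all, 7 members were not called with age in B3: RpL10Aa, RpL15, RpL24, RpL37b, RpS10a, RpS19b and RpS23. The -like neighbor RpL24-like, outside the set and known in yeast and human as an assembly factor of the large subunit, rose from 218 to 246 CPM across the libraries at 1 week to 485 to 589 CPM at 6 weeks (log2 change 1.18, adjusted p = 4.21e-07).

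In O3 a rise with age was also found in most members. There 79 of 86 rose and 3 fell, against 22.8% of all genes called higher and 27.4% called lower, with a median of 0.37 for the members and -0.00 for all genes. RpL35, a protein at the exit of the peptide tunnel, had the largest change among abundant members, from 590, 563 and 647 CPM to 922, 945 and 952 CPM (log2 change 0.65 ± 0.0688, adjusted p = 6.52e-06). All libraries at 6 weeks were above those at 1 week. RpS27 rose by 0.63, RpS18 by 0.59, RpL32 by 0.53 and RpL10 by 0.52. RpLP0 went from 816, 791 and 906 CPM to 1147, 1181 and 1108 CPM, without overlap (log2 change 0.45, adjusted p = 0.000726). RpS6 rose by 0.39. The 3 members that fell were RpL10Aa, RpS10a and RpS19b, which are among the 6 low paralogs, and RpL37b, RpL38, RpS15Ab and RpS5b were not called. Without libraries 1 and 2 of O3 at 1 week, which held the most testis RNA, 52 members were called and all rose, where 24.1% of all genes were called in either direction. That left library 3 alone at 1 week, which was taken to vary like the other groups.

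In O1 fewer members passed, and the count rested on single libraries. Of 86 members 55 rose and none fell by edgeR's test, against 10.4% of all genes called higher and 12.4% called lower; the median was 0.23, and -0.03 over all genes. RpS27 stood at 446, 378 and 404 CPM at 1 week and 564, 501 and 591 CPM at 6 weeks (log2 change 0.43 ± 0.0739, adjusted p = 0.000651), with no overlap. RpLP0 stood at 1021, 764 and 827 CPM and then at 1080, 1055 and 1067 CPM (log2 change 0.29, adjusted p = 0.019). Library 1 at 1 week was the high one of its group for RpLP0 and did not reach the libraries at 6 weeks. RpL35 rose by 0.38, RpS6 by 0.31 and RpL10 by 0.31, while RpLP1 (0.14), RpLP2 (0.17), RpL40 (0.14), RpS27A (0.18) and RpL41 (-0.02) were among 31 members not called. The count fell to 23 without library 2 and 26 without library 3 of O1 at 1 week, where 18.3 and 18.4% of all genes were called in either direction. It fell to 35 without library 1 and 24 without library 3 of O1 at 6 weeks, where 19.0 and 16.3% of all genes were called. It was 72 without library 1 of O1 at 1 week, where 24.0% of all genes were called. Libraries 2 and 3 at 1 week carried testis markers, described with the low paralogs, and without both of them, which left library 1 alone at 1 week, 2 members rose and 2 fell, with a median of 0.07 and 24.6% of all genes called in either direction. Library 1 stood apart in other ways: its gut markers summed to 16506 CPM against 10466 and 11541 CPM in libraries 2 and 3, its fat body markers to 2446 against 515 and 802 CPM, and 20.8% of its reads lay in no feature against 26.4 and 24.0%.

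Across the strains 55 of 86 members rose in B3, O1 and O3, 76 rose in both B3 and O3, and 81 rose in at least 1 strain, against 6.96, 13.2 and 32.1% of all genes. Among 81 abundant members, whose mean log2 CPM was at least 2, the change was positive for 80 in B3, 77 in O1 and 80 in O3. RpS15Ab was the lowest of these in all 3 strains.

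**Figure D2:**
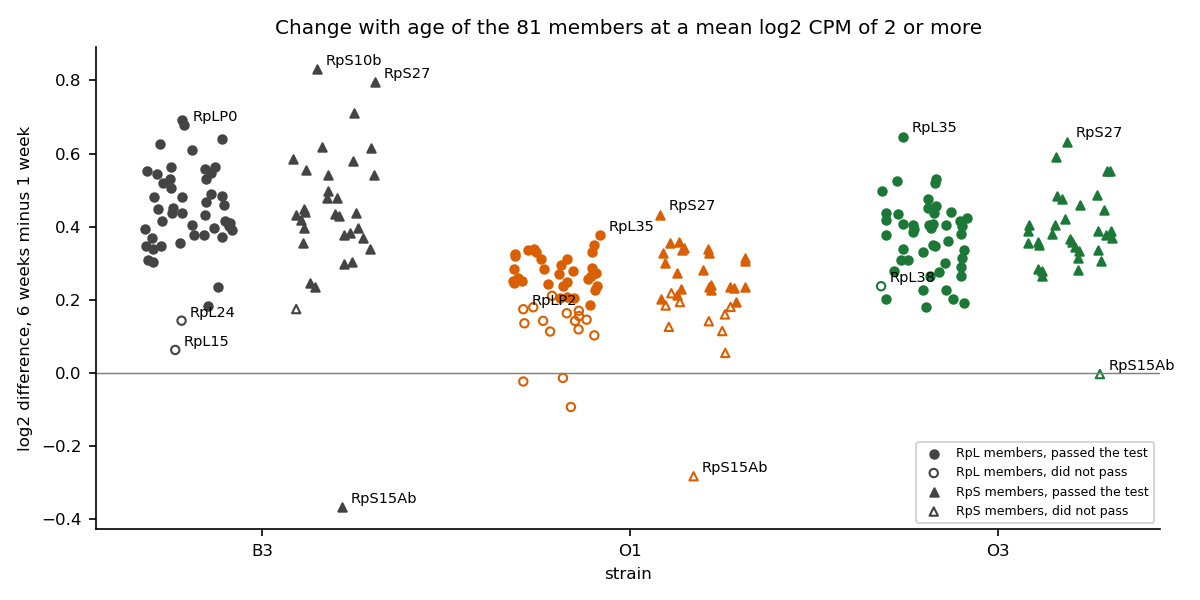
Log2 difference between 6 weeks and 1 week (vertical axis) for the 81 abundant members, by strain; circles are large subunit and triangles small subunit genes, and filled symbols passed the test. The points of B3 center near 0.44, those of O3 near 0.38 and those of O1 near 0.24, with RpS15Ab lowest in each strain.

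The pairs of paralogs differed in whether both genes moved with age. RpS15Aa stood at 600, 589 and 587 CPM in B3 at 1 week and at 801, 822 and 775 CPM at 6 weeks (log2 change 0.43, adjusted p = 0.0002). RpS15Ab stood at 32.3, 29.8 and 28.8 CPM and then at 23.3, 24.8 and 22.3 CPM (log2 change -0.37 ± 0.0988, adjusted p = 0.0076). The groups did not overlap for either gene, and they lay in opposite order. Per length, RpS15Ab made up 6.25% of the pair at 1 week and 3.69% at 6 weeks in B3, 5.41% and 4.0% in O1, and 5.11% and 3.94% in O3. In O1 RpS15Ab went from 34.1, 26.2 and 24.4 to 22.5, 23.3 and 23.8 CPM, a difference of -0.28 that did not pass (adjusted p = 0.0531), and RpS15Aa (0.18) was not called. In O3 RpS15Ab was at 24.4, 24.4 and 27.6 CPM and then at 25.8, 25.2 and 25.2 CPM (-0.00, adjusted p = 0.977), while RpS15Aa rose by 0.39. Reads that the copies share could not be followed in the deposited counts.

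In other pairs both copies were abundant. RpS14a and RpS14b, both genes of protein S14, rose by 0.25 and 0.24 in B3, 0.20 and 0.23 in O1, and 0.35 and 0.36 in O3, and RpS14b made up 35.5 to 38.3% of the pair per length over the age libraries. RpL34b rose by 0.31, 0.28 and 0.26 in B3, O1 and O3. RpL34a rose by 0.37 in B3 and 0.18 in O3 and was at 0.10, not called, in O1, with a share of 25.4 to 28.9% of the pair.

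**Figure D3:**
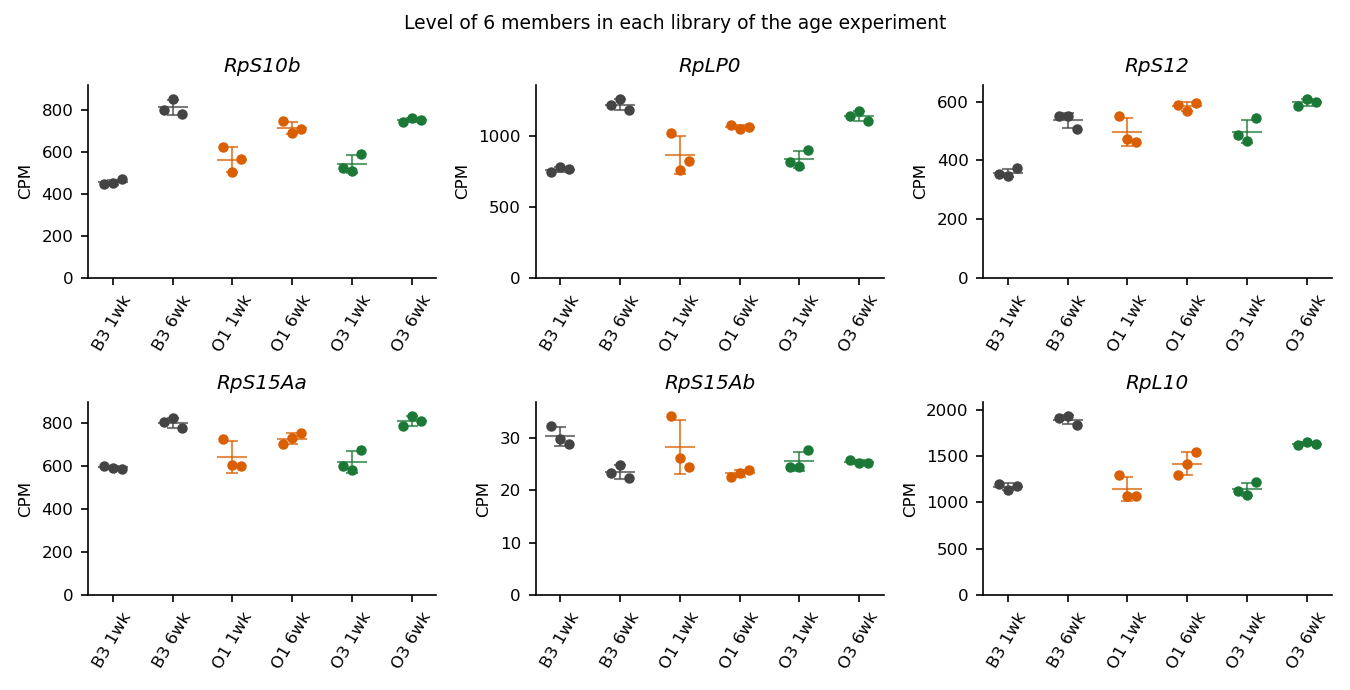
CPM (vertical axis) of RpS10b, RpLP0, RpS12, RpS15Aa, RpS15Ab and RpL10 in each of the 18 age libraries, by strain and age; points are libraries and bars are the mean ± SD. RpS10b in B3 moves from 446 to 470 CPM to 784 to 854 CPM, whereas RpS15Ab in B3 moves down from 28.8 to 32.3 CPM to 22.3 to 24.8 CPM.

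The low paralogs varied widely between libraries of one group. RpL10Aa was at 5.30, 13.7 and 0 CPM in the O3 libraries at 1 week, at 0, 2.60 and 3.35 CPM in O1 at 1 week, and at 0.101 to 0.143 CPM in O3 at 6 weeks. RpS19b was at 2.31, 5.57 and 0.035 CPM in O3 at 1 week, and RpS10a at 1.14, 2.30 and 0.175 CPM. Libraries 1 and 2 of O3 at 1 week were high in each, and library 3 was low. A floor of 3 counts is 0.084 to 0.194 CPM per library in the age experiment, so no fold is given here for these genes. The tests called RpL10Aa (adjusted p = 0.0229), RpS10a (adjusted p = 0.0188) and RpS19b (adjusted p = 0.0195) lower at 6 weeks in O3.

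The same libraries held the most testis RNA by a list of 19 testis markers. The summed level of that list was 319, 849 and 10.2 CPM in O3 at 1 week, 11.6, 211 and 224 CPM in O1 at 1 week and 162, 99.2 and 30.3 CPM in O1 at 6 weeks, against 13.4 to 62.3 CPM in B3 at 1 week and 9.37 to 23.2 CPM in the B3 and O3 libraries at 6 weeks. The marker Mst84Da was at 0 in every library of B3 and O1 at both ages and of O3 at 6 weeks. No other marker of the list was at 0 in every library of an age group. The part of testis RNA in the levels of the low paralogs was not tested.

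RpS5b, the minor gene for protein S5, was also present in libraries with few testis markers, and early germline markers rose beside it in B3. It stood at 0.201, 0.258 and 0.399 CPM in B3 at 1 week and at 0.992, 1.07 and 1.93 CPM at 6 weeks, without overlap (adjusted p = 0.00872). In O1 at 1 week it was already at 1.12, 1.85 and 1.56 CPM and in O3 at 2.31, 3.76 and 0.455 CPM. Early germline markers summed to 1.14, 1.42 and 1.64 CPM in B3 at 1 week and to 2.68, 3.26 and 5.47 CPM at 6 weeks, and 3 of the 4 tested rose. In O1 and O3 at 1 week they summed to 2.77, 5.51 and 4.37 CPM and to 6.70, 12.1 and 1.72 CPM. Ovary and eggshell markers summed to 1.10 to 1.47 CPM and then to 2.42 to 3.23 CPM in B3, with none of the 3 tested called by edgeR. The part of germline RNA in the level of RpS5b was not tested. The abundant partner RpS5a was at 570, 573 and 595 CPM in the B3 libraries at 1 week.

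**Figure D4:**
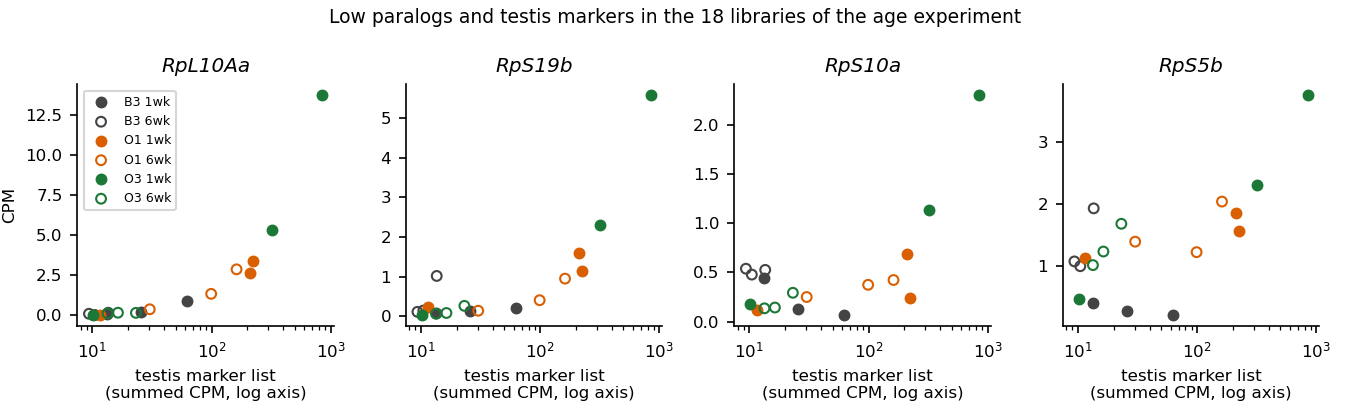
CPM of RpL10Aa, RpS19b, RpS10a and RpS5b (vertical axes) against the summed CPM of 19 testis markers (horizontal axis, log scale) in the 18 age libraries; filled symbols are 1 week, open symbols 6 weeks. The library of O3 at 1 week with 849 CPM of testis markers has the highest level of all 4 genes, and RpS5b is also present in libraries with few testis markers.

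The age change differed between O1 and B3 for some members. In the test of the difference between the age changes, 14 of 86 members changed less in O1 than in B3 and none more, against 8.28% of all genes called lower and 5.98% called higher, with a median difference of -0.21. RpS10b had the largest one, at -0.49 ± 0.0998 (adjusted p = 0.00504): in O1 it went from 622, 505 and 566 CPM to 748, 691 and 709 CPM, between the levels that B3 had at 1 and at 6 weeks. RpL27 (-0.38, adjusted p = 0.0139), RpL10 (-0.38, adjusted p = 0.0314) and RpLP0 (-0.38, adjusted p = 0.0419) followed. RpLP0 lost its call in 11 of 18 alternative fits, while RpS10b kept it in all 18. The count of members depended on single libraries. It was 4 without library 1 and 4 without library 2 of either B3 group. It was 5 without library 3 of B3 at 1 week, and 9 without library 3 of B3 at 6 weeks. In these fits 10.1 to 10.9% of all genes were called in either direction. In O1 the count was 7 without library 1 and 22 without library 2 at 1 week (13.9 and 13.7% of all genes). The count was 5 without library 1 and 4 without library 2 of O1 at 6 weeks (10.6 and 11.0% of all genes). With library 1 alone for O1 at 1 week it was 74, of which 73 were lower and 1 higher, with 32.4% of all genes called in either direction; the gut, fat body and unassigned shares of that library are given above. Gut markers moved with this difference, since 12 of 20 were called higher in it and none lower.

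Between O3 and B3, the age difference was called lower in O3 for 5 of 86 members, or 5.81%, and higher for none, against 7.59% and 10.1% of all genes, with a median difference of -0.07. The share of members was below that of all genes. RpS10b (-0.36, adjusted p = 0.0241) and RpS12 (-0.32, adjusted p = 0.0362), both abundant, rose less in O3 than in B3. RpS10b lost its call here in 7 of 18 alternative fits. The other three are low paralogs: RpS10a and RpS19b fell in O3 and were not called in B3, and RpS5b rose in B3 and was not called in O3. Gut markers were called higher in this test for 13 of 20 and lower for none. The count was 0 without library 1 or 2 and 2 without library 3 of B3 at 1 week, and 2 without any single library of B3 at 6 weeks. Of all genes 12.4 to 14.7% were then called in either direction. The count was 2 without library 1 or 2 of O3 at 1 week (13.5% of all genes). It was 1, 1 and 2 without library 1, 2 or 3 of O3 at 6 weeks (16.5, 12.8 and 13.4% of all genes). With library 3 alone for O3 at 1 week it was 16, with 13.6% of all genes called in either direction. The O1 and O3 comparisons share the B3 libraries.

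At 1 week a small number of members was called higher in the delayed-aging strains than in B3. Their share was near that of all genes in O1 and below it in O3. In O1 12 of 86 were higher and none lower by edgeR's test, against 10.3% of all genes called higher and 13.5% called lower, with a median of 0.14. In O3 14, or 16.3%, were higher and none lower, against 19.3% and 16.7% of all genes, with a median of 0.09. Among abundant members, RpS12, a small subunit protein known in Drosophila for its part in cell competition between Minute and wild-type cells, had the largest difference in both. B3 libraries were at 354, 347 and 373 CPM of RpS12, O1 libraries at 551, 473 and 464 CPM and O3 libraries at 486, 466 and 544 CPM. All O1 and O3 libraries were above all B3 libraries, with log2 differences of 0.47 ± 0.0693 (adjusted p = 0.00022) and 0.48 ± 0.0693 (adjusted p = 0.000161). Low paralogs had larger called values, RpS5b in O1 (adjusted p = 0.011) and RpS5b, RpS10a and RpS19b in O3 (adjusted p = 0.00279, 0.0402 and 0.0309), with the libraries described above.

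RpL23, a large subunit protein, was 0.37 higher in O1 and 0.35 higher in O3 at 1 week. RpL24 was 0.38 higher in O1 and 0.18 higher in O3, and RpL3, at the peptidyl transferase center, 0.27 and 0.25 higher. The O1 count was 29 without library 2 of O1 and 8 without library 1 of B3, where 19.6 and 19.0% of all genes were called in either direction. The O3 count was 5, 3 and 5 without library 1, 2 or 3 of B3 (27.0, 23.2 and 21.4% of all genes). It was 7 without library 3 of O3 (45.3% of all genes). With library 1 alone for O1 and library 3 alone for O3, the libraries with few testis markers, the counts were 69 and 38, where 23.1 and 19.4% of all genes were called in either direction. Library 1 of O1 is the one richest in gut and fat body markers in its group. A list of 9 markers of the male accessory gland summed to 135 CPM in library 3 of O3, and to 625 and 1529 CPM in libraries 1 and 2. The sum was 3.28 to 51.7 CPM in the B3 libraries and 1.95 CPM in library 1 of O1. At 1 week 8 of the 9 were called higher in O3 than in B3 and 0 in O1 (edgeR). The part of accessory gland RNA in these counts was not tested.

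At 6 weeks the differences between strains were of both signs, and marker levels differed with them. Of 20 gut markers 19 were higher in O1 and 17 in O3 than in B3, with medians of 3.96 and 3.31, and of 17 muscle markers 15 and 14 were lower and 1 higher in each. Their part in the strain differences was not tested. O1 had 1 member higher than B3, RpL24 (0.23), and 14 lower, against 19.8% of all genes called higher and 24.5% lower, with a median of -0.09. RpL10 was the lowest called member at -0.42 ± 0.0775 (adjusted p = 0.000556), followed by RpS18 at -0.37, RpLP2 at -0.37 and RpL39 at -0.35. O3 had 10 members higher and 5 lower, against 20.0% and 20.2% of all genes, with a median of 0.02. Of the called members RpL40 (0.30) and RpL27A (0.30) were the highest and RpLP2 (-0.24, adjusted p = 0.0261), RpL11 (-0.22, adjusted p = 0.0408) and RpL10 (-0.21, adjusted p = 0.0426) the lowest. RpL10 lost its call in 8 of 11 alternative fits and RpLP2 in 5 of 11, while RpL40 kept it in all 11. The O3 count was 5, 8 and 8 without library 1, 2 or 3 of B3 and 6, 5 and 5 without library 1, 2 or 3 of O3. Of all genes 34.0 to 35.9% were then called in either direction. RpS12 was no longer called, at 0.12 in O1 and 0.16 in O3: B3 had reached 552, 552 and 506 CPM, O1 was at 590, 568 and 595 CPM and O3 at 587, 610 and 598 CPM.

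In the strain day course, which is a separate set of libraries, RpS12 was again higher in both strains. Over all time points 10 B3 libraries ranged from 271 to 338 CPM of RpS12, with a median of 295, O1 libraries from 371 to 537 CPM with a median of 397, and O3 libraries from 374 to 514 CPM with a median of 395. Neither strain overlapped B3. The log2 difference from B3 over the mean of the 4 time points was 0.44 ± 0.0598 in O1 (adjusted p = 1.01e-06) and 0.45 ± 0.0562 in O3 (adjusted p = 2.69e-07).

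The ubiquitin fusion gene RpS27A ranged from 540 to 611 CPM in B3 with a median of 569.5, from 651 to 779 CPM in O1 with a median of 681, and from 672 to 889 CPM in O3 with a median of 697. It was 0.28 higher in O1 (adjusted p = 4.39e-06) and 0.34 higher in O3 (adjusted p = 8.64e-08), with no overlap with B3. RpL24 lay between 454 and 509 CPM in the B3 libraries, between 554 and 741 CPM in O1 libraries and between 488 and 641 CPM in O3 libraries, so that O1 and B3 did not overlap and O3 and B3 did. The log2 difference of RpL24 was 0.33 in O1 and 0.16 in O3. RpL23 was 0.31 and 0.30 higher and RpL40 0.27 and 0.16 higher in O1 and O3.

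Over all members of the day course, 51 of 85 were higher in O1 than in B3 and none lower, against 28.6% of all 12295 genes called higher and 27.6% lower, with a median of 0.13. In O3 25 were higher and 5 lower, against 31.3% and 29.4% of all genes, with a median of 0.04. RpL10Aa and RpS28a were below the filter. All O1 libraries were above all B3 libraries for 12 of 85 members, against 7.60% of all genes, and all O3 libraries for 4, RpL23, RpL29, RpS12 and RpS27A, against 6.79%. No member lay below B3 in all libraries of O1 or O3, against 8.42 and 9.13% of all genes. Fat body markers separated the strains, at 1538 to 4569 CPM in B3, 690 to 1820 CPM in O1 and 174 to 552 CPM in O3, with 1 of 8 higher and 1 lower in O1 and 1 higher and 5 lower in O3. Of 18 gut markers 5 were higher and 8 lower in O1, and 3 higher and 11 lower in O3. Of 17 muscle markers 9 were higher and 5 lower in O1, and 6 higher and 8 lower in O3. The part of these markers in the strain differences was not tested. The 5 members lower in O3 were RpL10 (-0.16), RpL11 (-0.22), RpL15 (-0.11), RpLP2 (-0.18) and RpS15Ab (-0.20). RpL11, a large subunit protein that binds 5S ribosomal RNA, lay between 600 and 783 CPM in the B3 libraries and between 529 and 742 CPM in those of O3, so the ranges overlapped (adjusted p = 0.000146). Of the low paralogs RpL37b, RpS19b and RpS5b were called higher in O3 (adjusted p = 0.00745, 0.0315 and 0.00489), where replicate 3 at ZT0 held 1.02 CPM of RpL37b and 0.781 CPM of RpS19b, and replicate 3 at ZT18 1.35 and 2.77 CPM. Early germline markers were high in the same libraries, at 6.40 CPM in replicate 3 of O3 at ZT0 against 1.49 and 1.81 CPM in the other libraries of that time, and at 7.65 against 1.35 and 1.42 CPM at ZT18. Testis markers summed to at most 31.2 CPM in a library of this day course, in replicate 3 of O3 at ZT18. The part of germline RNA in these calls was not tested.

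**Figure D5:**
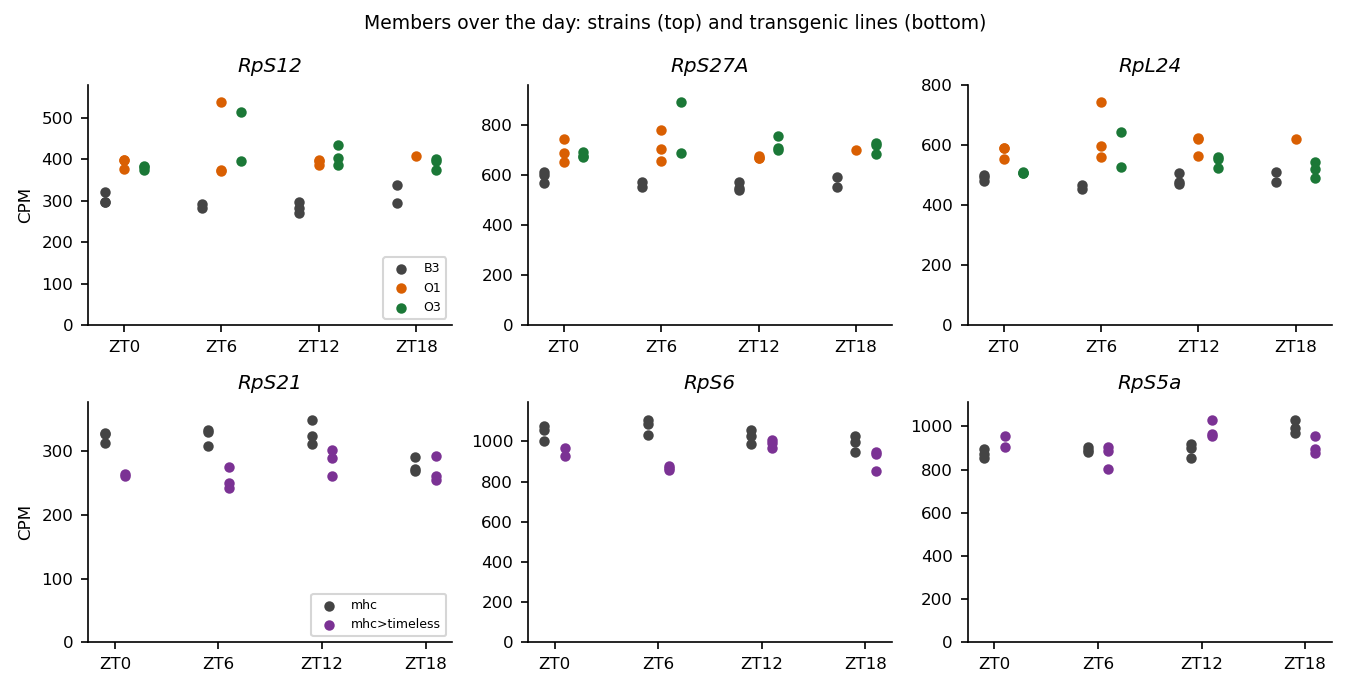
CPM (vertical axis) by zeitgeber time (h, horizontal axis) in each library: RpS12, RpS27A and RpL24 in B3, O1 and O3, and RpS21, RpS6 and RpS5a in mhc and mhc>timeless. RpS12 lies at 271 to 338 CPM in the B3 libraries and at 371 to 537 CPM in O1 at all times; RpS21 lies at 268 to 349 CPM in mhc and at 242 to 302 CPM in mhc>timeless.

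Over the hours of the day the members of the 3 strains did not pass the joint test of the 4 time points. None of 85 was called in B3, O1 or O3 by edgeR, against 11.2, 10.9 and 17.0% of all genes. At an unadjusted p under 0.05 there were 1, 0 and 17 members. DESeq2's test called none in B3 or O1 and 5 in O3, where it called 23.8% of all genes. The smallest adjusted p was 0.199 in B3, 0.252 in O1 and 0.0599 in O3. The difference between the highest and the lowest time-point mean had a median over the 81 abundant members of 0.143 log2 in B3, 0.103 in O1 and 0.218 in O3. On simulated counts of genes at large, the joint test in B3 recovered 10.4% of log2 changes of 0.25 and 79.1% of changes of 0.5. Changes as small as these medians could therefore go uncalled. Of these 81 members 80 were highest at ZT6 in O3, while in B3 43 were highest at ZT0 and 37 at ZT18, and in O1 58 were highest at ZT18, which had 1 library.

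O3 at ZT6 held 2 libraries that stood apart, with 5.31 and 6.55% of counts in ribosomal protein genes. RpL41, for example, was at 738 CPM in the first and 1062 CPM in the second. Without the first, which left the second alone at that time, 63 members were called over time in O3, and 50 in the test of the difference in daily pattern between O3 and B3. Over all genes the share called went from 17.0 to 28.2% and from 1.55 to 9.03% at the same step. Without library 1 of O3 at ZT12 1 member was called over time. With all libraries none was called in the tests of a different daily pattern in O1 or O3 against B3 (edgeR, 1.40 and 1.55% of all genes). At an unadjusted p under 0.05 there were 2 and 37 members. DESeq2 called 9 in O3, where it called 5.95% of all genes.

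With timeless expressed in muscle, most ribosomal protein genes were slightly lower. Of 86 members 58 were lower in mhc>timeless than in mhc over the 4 time points and none higher, against 9.75% of all 12727 genes called lower and 8.68% called higher. The median log2 difference was -0.10 for the members and 0.01 for all genes. Of 50 large subunit genes 38 were lower, and of 36 small subunit genes 20. Among the 81 abundant members 79 had a negative difference, and RpS5a and RpL39 were at 0.01. The ranges of the 12 mhc and the 11 mhc>timeless libraries overlapped for every member, and over all genes 0.416% lay lower and 0.338% higher in all mhc>timeless libraries.

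RpS21, a small subunit protein, ranged from 268 to 349 CPM in mhc with a median of 317.5 and from 242 to 302 CPM in mhc>timeless with a median of 261. The mhc>timeless libraries lay lower as a group, with overlapping ranges, and the log2 difference was -0.22 (adjusted p = 0.000137). RpS15Ab ranged from 53.1 to 65.8 CPM in mhc and from 45.9 to 59.6 CPM in mhc>timeless (-0.24, adjusted p = 5.71e-05). RpS6 ranged from 947 to 1109 CPM and from 855 to 1006 CPM (-0.15, adjusted p = 0.000132). RpLP2 was lower in mhc>timeless at a log2 difference of -0.21 (adjusted p = 0.00279), RpL41 and RpS16 were at -0.19, and the stalk genes RpLP0 and RpLP1 at -0.07. RpS5a (0.01), RpS10b (-0.02) and RpL10 (-0.04) were not called.

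The count of lower members was not the same at each hour, but a difference between hours in the effect of the transgene was not called for any member (edgeR, values given with the daily pattern). Taken alone, ZT6 gave 45 called members with a median of -0.18, ZT0 9 with -0.08, ZT18 5 with -0.12 and ZT12 none with -0.01, where 5.35, 3.69, 2.66 and 6.44% of all genes were called (edgeR; time points taken alone after the data were seen). The summed level of all members was 74656 ± 1501 CPM in mhc and 65753 ± 1335 CPM in mhc>timeless at ZT6 (SD, n = 3 each), and 73743 ± 427 and 73553 ± 2398 CPM at ZT12. Depth moved with genotype, since mhc libraries at ZT0, ZT6 and ZT12 were the shallower ones. Fat body markers moved with it too, summing to 3503 to 4591 CPM in mhc and 2045 to 3189 CPM in mhc>timeless at ZT6, and to 3014 to 3107 and 1319 to 1675 CPM at ZT12. Over the 4 time points 3 of 8 fat body markers were lower in mhc>timeless and 0 higher. Of 9 accessory gland markers 4 were higher and 0 lower, with sums of up to 56.2 CPM in mhc>timeless and up to 9.49 CPM in mhc. Of 18 gut markers 3 were higher and 4 lower, and of 17 muscle markers 3 were higher and 4 lower. The part of depth or of any of these markers in the result was not tested.

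Within mhc>timeless the members were highest at ZT12. By the joint test 23 of 86, or 26.7%, were called there, against 19.1% of all genes. All 23 were highest at ZT12, as were 80 of the 81 abundant members. RpL28, a large subunit protein, stood at 640, 642 and 610 CPM at ZT6 and at 735, 764 and 765 CPM at ZT12 (adjusted p = 0.00794). All its ZT12 libraries were above all ZT6 libraries. RpL11, RpL3 and RpL7A were called as well (adjusted p = 0.00821, 0.00876 and 0.00905), and RpS6 was called at 0.0261. The count was 13 without library 1 and 8 without library 3 of ZT6, 14, 6 and 4 without library 1, 2 or 3 of ZT12, and 36 without library 2 of ZT18. The share of all genes called in these fits is not given, so these counts have no background beside them.

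In mhc 5 of 86 members, or 5.81%, were called over time, a share below the 22.6% of all genes. These were RpL32 and RpS5a, highest at ZT18 (adjusted p = 0.0193 and 0.0196), RpL41, highest at ZT0 (adjusted p = 0.0262), RpS21, highest at ZT12 (adjusted p = 0.0266), and the low paralog RpL37b, at 0.069, 0.525 and 0.0164 CPM at ZT12 (adjusted p = 0.0424). RpL32, widely used as a reference gene in Drosophila, stood at 1015, 900 and 973 CPM at ZT18 and at 851, 783 and 864 CPM at ZT12. Depth moved with time in mhc, at 148 to 168 M counts at ZT18 and 53.1 to 71.9 M at the other times. The mhc>timeless libraries held 124 to 170 M counts over all times. The part of depth in the calls over time, and in the test between genotypes below, was not tested. The count was 3 without library 1 or 3 of ZT0, 3 without library 1 of ZT18 and 0 without library 3 of ZT18. For these fits the share of all genes called is not given. The difference in daily pattern between the genotypes was called for no member by edgeR, against 0.126% of all genes, with a smallest adjusted p of 0.109. At an unadjusted p under 0.05 there were 43 members, DESeq2's test called 20, and 1 was called without library 2 of mhc>timeless at ZT0. Shares of all genes are not given for these counts.

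Most genes that build ribosomes rose with age, as most ribosomal protein genes did. Of 31 listed symbols for ribosome biogenesis and RNA polymerase I, which include old and new names of one gene, 25 were found and tested. With age 19 rose in B3, 20 in O1 and 20 in O3, and none fell, with medians of 0.46, 0.44 and 0.38. Over all genes 21.8, 10.4 and 22.8% were called higher. Fib, the methyltransferase fibrillarin of the nucleolus, rose by 0.65, 0.49 and 0.42 in B3, O1 and O3. The gene eIF6, a factor that keeps new large subunits from joining too early, rose by 0.77, 0.76 and 0.70. RpI1, a large subunit of RNA polymerase I, rose by 0.54, 0.53 and 0.41. The gene dm, the Drosophila Myc factor, rose by 0.53, 0.63 and 0.37.

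Between strains, most genes of the biogenesis list were lower in O1 and O3 than in B3. At 1 week 17 of 25 were lower in each strain and none higher, with medians of -0.34 in O1 and -0.39 in O3, while the ribosomal protein medians were 0.14 and 0.09. At 6 weeks 18 were lower in each, with 1 higher in O3, and in the day course 20 in O1 and 19 in O3, with 1 and 2 higher. Of all genes 13.5 and 16.7% were called lower in O1 and O3 at 1 week. The shares were 24.5 and 20.2% at 6 weeks and 27.6 and 29.4% in the day course. The factor gene dm was at -0.85 in O1 and -0.78 in O3 at 1 week. In mhc>timeless 2 of the 25 were higher and 3 lower, near the 8.68 and 9.75% of all genes.

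Most elongation and ribosome-bound factors rose with age too. Of 12 tested, 8 rose in B3, 7 in O1 and 10 in O3 with age, with 1 lower in each, against 21.8, 10.4 and 22.8% of all genes called higher. In mhc>timeless 8 were lower and none higher, with a median of -0.11, against 9.75% of all genes called lower. The gene sta, which encodes a small subunit protein but has a symbol outside the rule, rose by 0.62, 0.40 and 0.43 in B3, O1 and O3 and was at -0.14 in mhc>timeless. Rack1, a scaffold protein on the small subunit, rose by 0.35, 0.28 and 0.33 with age.

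Genes of TOR signaling changed in both directions. Of 11 tested, 5 rose and 1 fell with age in B3, 2 and 2 in O1, and 6 and 3 in O3. Over all genes 21.8, 10.4 and 22.8% were called higher and 20.0, 12.4 and 27.4% lower. With 11 genes, a count of 1 or 2 is not told apart from these shares. Akt1, a kinase upstream of TOR, rose by 1.14, 0.63 and 0.51. S6k, the kinase of RpS6, was at 0.10, not called, in B3 and rose by 0.35 in O1 and 0.33 in O3. Thor, the 4E-BP repressor of cap-dependent translation, was at -0.01, -0.11 and -0.23, not called in any strain. Between strains 8 of 11 were lower than in B3 at 6 weeks in each of O1 and O3, and none was higher, against 24.5 and 20.2% of all genes called lower.

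The abundant members varied together across libraries. The median Pearson correlation of log2 CPM between pairs of the 81 abundant members was 0.899 over 18 age libraries, 0.701 over 31 libraries of the strain day course and 0.735 over 23 transgenic libraries. These libraries share group, depth and composition, so the values are descriptive. RpS15Ab was least like the others in the age experiment, with a median of -0.415, followed by RpL24 at 0.504. RpL38 was least like them in the strain day course, at 0.187, and RpL39 in the transgenic one, at 0.183.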

How the data were processed

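RNA-seq of fly skeletal muscle was deposited as 1 table of raw gene counts per library. Per the submitters' processing notes, BWA, STAR and HTSeq were used with genome build dm3; which step used which tool, and the versions, are not given in the sources used. Per the labels the libraries were stranded mRNA libraries. The deposited counts were used as they are. The summary lines of the counter (no feature, ambiguous, not unique and the like) were left out of library sizes, and their ranges are given in the report. Each of the 3 experiments was fitted alone with edgeR 4.0.16 (R 4.3.3), with 1 mean per group, filterByExpr, TMM scaling and the quasi-likelihood F test. P-values were adjusted by Benjamini-Hochberg over all genes tested (12445, 12295 and 12727), and genes with adjusted p under 0.05 were called. CPM used effective library sizes. Values are log2 differences ± SE, with SE taken from the difference and its F statistic. Time of day was a joint test of the 4 time-point means, and strain and transgene contrasts weight the time points equally. Common biological coefficients of variation were 0.34, 0.148 and 0.232.

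The members and all gene lists were chosen with earlier results of these data known. Genes named are the paralog sets, the stalk genes, RpS6, the 5 highest and 5 lowest log2 differences among members with mean log2 CPM of at least 2, and the 5 members with the smallest p in a joint test; a few others were named as examples of a role or a list after their values were seen. Alternatives were DESeq2 1.42.0 size factors and test, no filter, TMM without ribosomal protein genes, the replicate number as a block, each library left out, and, in the age experiment, leaving out the libraries richest in testis RNA. Replicate numbers were checked for pairing and did not pair the libraries. A floor of 3 counts was 0.033 to 0.076 CPM in the strain day course and 0.018 to 0.057 CPM in the transgenic one; floors cover counting error only. Replicate libraries differed beyond sampling noise, since their chi-square divided by its degrees of freedom was 12.1 to 181 in 67 pairs. Tested on simulated counts, the fit recovered 29.9% of log2 changes of 0.5 in the B3 age comparison. It recovered 94.0% in the O1 to B3 day comparison and 100% in the transgene comparison. Of log2 changes of 0.25 it recovered 2.99, 67.2 and 89.6% in these comparisons. In the joint test over time in B3 it recovered 10.4% of changes of 0.25 and 79.1% of changes of 0.5. These shares are for genes at large, and recovery for the members alone was not tested. In the measured counts 79 of 86 members were called with age in B3. No sequences or coordinates are given, and values of some single members are not reported here.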

Additional observations from a re-analysis of the deposited data

Results flagged for a closer look

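The change with age differed between O1 and B3 for 14 of 86 members by the interaction term of edgeR, all with the lower age difference in O1. Over all genes 8.28% were called lower and 5.98% higher. Among the members were RpS10b (-0.49), RpL27 (-0.38) and RpL28 (-0.29). The O1 count was 4 to 22 when any single library was left out. It was 4 without library 1 of B3 at 1 week, where 10.8% of all genes were called in either direction. Between O3 and B3 the change with age differed for 5 of 86 members, a share of 5.81% where 7.59% of all genes were called lower. Among them were RpS5b (-2.91), RpS10b (-0.36) and RpS12 (-0.32). RpS5b is a low paralog, at 0.201 CPM in its lowest age library, one of B3 at 1 week. A floor of 3 counts was 0.127 to 0.194 CPM in the B3 libraries at 1 week. The size of the RpS5b difference is therefore uncertain and is not to be ranked against those of the abundant RpS10b and RpS12. The O3 count was 0 without library 1 or 2 of B3 at 1 week. RpS10b passed in both, but the comparisons share the B3 libraries, and between O3 and B3 it lost its call in 7 of 18 alternative fits. RpS5b stood at 2.31, 3.76 and 0.455 CPM in O3 at 1 week, in the same libraries that held 319, 849 and 10.2 CPM of testis markers, and the part of testis RNA in its difference was not tested. RpS12 was 0.48 higher in O3 than in B3 at 1 week and 0.16, not called, at 6 weeks.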

How the results depend on the processing

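Counts of called members were within 1.5 times of the main count in 281 of 357 alternative fits, medians moved beyond the spread between replicates in 11 of 201, and of 1046 values of single named members 974 kept their side of the threshold, 62 lost it, 10 gained it and none reversed. With DESeq2 size factors the counts were 32 (O1 to B3 at 1 week) and 9 (age by strain, O3). With DESeq2's test they were 38 and 31 (O1 and O3 to B3 at 1 week), 27 and 23 (6 weeks), 33 and 12 (age by strain), 5 (time in O3), 9 (time by strain, O3), 50 (time in mhc>timeless) and 20 (time by transgene). Without the filter they were 8 (O3 at 1 week), 4 (O3 at 6 weeks), 3 and 2 (age by strain). Without the testis-rich libraries they were 4 and 52 (age in O1 and O3), 69 and 38 (O1 and O3 at 1 week), and 74 and 16 (age by strain); that left library 1 of O1 and library 3 of O3 alone at 1 week, each taken to vary like the other groups. Within single time points the transgene count was 9 at ZT0, 0 at ZT12 and 5 at ZT18. Leaving out 1 library at a time gave 77 to 79, 23 to 72 and 70 to 84 for age in B3, O1 and O3; 8 to 29 and 3 to 15 for O1 and O3 at 1 week; 10 to 15 and 5 to 8 at 6 weeks; 4 to 22 and 0 to 6 for age by strain; 41 to 55 and 26 to 39 in the day course; 0 to 63 for time in O3 and 0 to 50 for its difference from B3; 48 to 61 for the transgene, 0 to 7 for time in mhc, 4 to 36 in mhc>timeless and 0 to 1 for their difference. Leaving out the only library of O1 at ZT18 gives no comparison of 4 time points. Replicate numbers did not pair the libraries: with the number as a block the counts were 79, 50 and 81 for age in B3, O1 and O3, 3 for age by strain in O3, 18 for time in mhc>timeless and 55 for the transgene, and the median correlation of same-numbered libraries was -0.086, 0.0135 and 0.0101 in the 3 experiments. Where no value is given above for why a count moved, the cause was not tested. TMM without ribosomal protein genes left the B3 age median at 0.44 and the transgene median at -0.10. Depth limits the low paralogs, which lie near the floor of 3 counts.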
